A study of Mus musculus with 28 samples.

Results

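Txnip, Arrdc4, Mlxip, Mlxipl and Mlx belong to a small glucose-sensing circuit, and Arrdc3 is of the same gene family as Txnip and Arrdc4. The RNA levels of these 6 genes were followed through 8 groups of mouse libraries. They were found by symbol in the deposited tables and are 6 of the 55291 genes listed there. They were chosen by their values in all 3 tables, so their levels and differences are given here as descriptions, with no test. In the first culture experiment, LLC cells, a mouse Lewis lung carcinoma line, received 200 nM BAY-876 or vehicle for 36 h (3 libraries each). BAY-876 blocks GLUT1, the glucose transporter encoded by Slc2a1. In the second, named here by its 32 h of cytokine, LLC cells received BAY-876 alone, TNF alone, BAY-876 with TNF, or neither (the control), again with 3 libraries each. The inhibitor was given at 200 nM for 24 h, and 20 ng/ml TNF, an inflammatory cytokine, followed for 32 h. The labels do not say whether the inhibitor stayed on during those 32 h. In the third, 5 libraries of OT1 cells and 5 of tumour cells were sorted on day 16 from tumours of LLC cells that carry ovalbumin and NGFR. OT1 cells are CD8 T cells with a transgenic receptor for an ovalbumin peptide, and they were transferred in an activated state on day 9. The hosts were Rag1 knockout mice, which lack T and B lymphocytes but keep myeloid cells. All tumour material comes from a single cell line, and the labels do not say that replicates were separate cultures or animals, so the spread between replicates may be technical.

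MondoA, encoded by Mlxip, and ChREBP, encoded by Mlxipl, are transcription factors that respond to phosphorylated glucose inside the cell. Each binds DNA as a heterodimer with Mlx at carbohydrate response elements, which are paired copies of an E-box-like sequence. Txnip and Arrdc4 are the best-known targets of these dimers, and their products are alpha-arrestins that hold back glucose uptake by promoting the internalisation of GLUT1. TXNIP also binds and inhibits thioredoxin. ARRDC3 belongs to the same alpha-arrestin family and acts as an adaptor that links membrane receptors, such as adrenergic receptors, to ubiquitin ligases of the NEDD4 family.

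The stretches upstream of Txnip and Arrdc4 are shown because these 2 members are the known targets of the Mlx dimers and had the lowest levels under BAY-876, relative to vehicle, at 36 h. Both run from base -250 to base -11 before the annotated transcription start, 5′ to 3′ on the strand of the gene, from RefSeq on GRCm38.p6. That of Txnip lies at chr3:96557707-96557946 on the plus strand and that of Arrdc4 at chr7:68749249-68749488 on the minus strand. Capitals mark the motifs found by search: the carbohydrate response element, the E-box, CCAAT boxes (ATTGG where the box is on the other strand) and a FOXO motif.
Txnip: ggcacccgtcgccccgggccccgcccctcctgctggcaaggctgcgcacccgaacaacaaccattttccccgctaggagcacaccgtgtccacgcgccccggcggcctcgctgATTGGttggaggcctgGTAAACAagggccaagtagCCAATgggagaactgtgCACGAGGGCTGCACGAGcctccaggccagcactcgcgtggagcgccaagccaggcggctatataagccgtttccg
Arrdc4: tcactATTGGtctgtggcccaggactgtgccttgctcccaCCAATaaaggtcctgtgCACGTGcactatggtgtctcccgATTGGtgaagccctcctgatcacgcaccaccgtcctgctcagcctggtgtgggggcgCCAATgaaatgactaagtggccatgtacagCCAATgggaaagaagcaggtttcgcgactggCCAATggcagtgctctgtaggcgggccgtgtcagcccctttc

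Promoter windows, from 250 bases before to 50 after the start, were found for 6 of 6 members (9 windows in all) and were searched on both strands, beside 32851 windows of all genes. In Txnip the element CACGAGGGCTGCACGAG lies at -85 to -69. It matches CACGNG repeated in the same direction after 5 bases, a spelling (N is any base) that was written down only after the letters of this window had been read, and that 0.0487% of all windows hold. The spelling with sites that face each other, CANGNG and CNCNTG with 5 bases between, is in 0.557% of windows and in no window of a member. The FOXO motif TGTTTAC lies in reverse at -121 to -115 of Txnip and is in 3.65% of windows. Arrdc4 has the E-box CACGTG at -193 to -188, and Mlx and the second window of Mlxipl each have 1, at -40 to -35 and -98 to -93, as do 7.15% of windows. CCAAT is in 37.4% of windows. Txnip holds 2 copies and Arrdc4 holds 6, a number reached by 0.0791% of windows. These matches describe letters in the reference and no binding was measured.

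Summed normalized counts per library were 16847994 to 17134536 at 36 h, and the other tables hold TPM (a level scaled by gene length and library), so their depth is unknown. The values for 36 h are not scaled by gene length, so levels of different genes are compared below in TPM only. The 6 T cell markers summed to 4152 to 6962 TPM in OT1 cells and 3.47 to 8.43 TPM in tumour cells, and the 6 LLC markers to 47.2 to 161 TPM in OT1 cells and 1239 to 1467 TPM in tumour cells. In the cultures the T cell markers summed to 4.30 to 22.1 normalized counts at 36 h and 0.0592 to 1.40 TPM at 32 h, mostly Lck by group mean, and Cd3e was at 0 in every culture group. The 8 myeloid markers summed to 40.1 to 80.5 normalized counts at 36 h and 2.49 to 5.36 TPM at 32 h, mostly Cd68 and Lyz2, and Adgre1, Itgam, C1qa and Aif1 were at 0 in every culture group. The LLC marker sum differed between treatments at 32 h, with 889 to 913 TPM with BAY-876, 607 to 642 TPM with TNF, 427 to 438 TPM with both and 1095 to 1172 TPM in control. At 36 h it was 26911 to 27389 normalized counts with BAY-876 and 27843 to 28290 with vehicle. The 4 fibroblast markers, none of them at 0 in these cells, summed to 828.6 to 838.6 TPM with BAY-876, 359 to 422 TPM with TNF, 299.8 to 341 TPM with both and 838 to 860 TPM in control. At 36 h they summed to 21286 to 22970 normalized counts with BAY-876 and 16573 to 17653 with vehicle, and on day 16 to 23.2 to 75.8 TPM in OT1 cells and 304 to 740 TPM in tumour cells. The part of these shifts in the members' values was not tested. The 8 myeloid markers were well above 0 in the sorted OT1 libraries, as given with the day 16 results.

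Txnip was the member with the lowest level under BAY-876 relative to its comparison group in both culture experiments. At 36 h it had 28.3, 22.1 and 13.3 normalized counts in the 3 BAY-876 libraries, against 1267, 1370 and 1359 in the 3 vehicle libraries. Every BAY-876 library lay far below every vehicle library. The means were 21.2 ± 7.53 with BAY-876 and 1332 ± 56.5 with vehicle (SD, n = 3 each), so the BAY-876 mean was 1.60% of the vehicle mean. On the log2(value + 1) scale used throughout, which understates differences of genes at low levels, the difference was -5.96 (SE 0.23).

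In the 32 h experiment Txnip had 0.653, 0.303 and 0.517 TPM with BAY-876, 16.2, 10.6 and 8.58 TPM with TNF, 0.516, 0.553 and 0.223 TPM with BAY-876 and TNF, and 43.0, 43.1 and 44.2 TPM in control. The control libraries were highest, the TNF libraries lay between, and both groups with BAY-876 lay together below 1 TPM. With BAY-876 the mean was 1.13% of the control mean (log2 difference -4.90, SE 0.19). With TNF it was 27.1% of control (log2 difference -1.84, SE 0.19), and no TNF library reached the control range. BAY-876 with TNF gave 0.991% of control (log2 difference -4.97, SE 0.19) and 3.65% of the TNF mean (log2 difference -3.12, SE 0.19). Between BAY-876 with TNF and BAY-876 alone the libraries overlapped, with a log2 difference of -0.06 (SE 0.19). The order of mean levels was therefore control, TNF, BAY-876, BAY-876 with TNF, and the last pair of neighbours did not separate. All of these comparisons share libraries of the same 12.

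**Figure D1:**
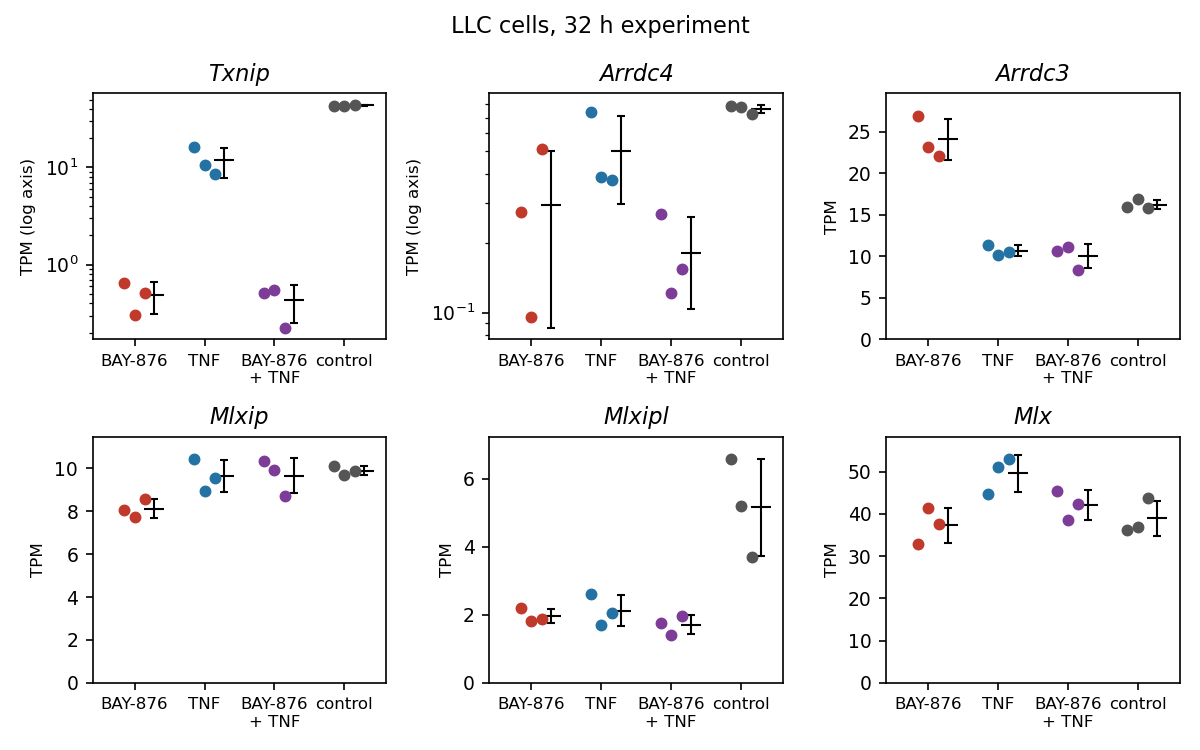
Levels of the 6 members in TPM in each library of the 32 h experiment, by group (BAY-876, TNF, BAY-876 with TNF, control), on a log axis for Txnip and Arrdc4 and a linear axis from 0 for the others; points are libraries, and the cross and bar are the mean and SD of 3. Txnip lies at 43.0 to 44.2 TPM in control and below 1 TPM in both groups with BAY-876, and Arrdc3 is highest with BAY-876 alone.

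Arrdc4, the other well-known target of the Mlx dimers, was expressed at a much lower level. At 36 h it had 3.63, 9.44 and 12.4 normalized counts with BAY-876, against 64.9, 56.6 and 39.5 with vehicle. No BAY-876 library reached the lowest vehicle library. The means were 8.49 ± 4.46 with BAY-876 and 53.7 ± 13.0 with vehicle (SD, n = 3 each), which is 15.8% of vehicle, with a log2 difference of -2.63 (SE 0.42). In the 32 h experiment the values were 0.274, 0.0963 and 0.511 TPM with BAY-876, 0.741, 0.389 and 0.377 TPM with TNF, 0.269, 0.121 and 0.154 TPM with BAY-876 and TNF, and 0.788, 0.778 and 0.727 TPM in control. All 12 libraries lay below the 1 TPM that the filter on low values asked for, so Arrdc4 was not among the genes tested there and its differences come from a fit without the filter. Its libraries with BAY-876 lay below those of control (38.5% of the control mean, log2 difference -0.46, SE 0.12), and its libraries with BAY-876 and TNF lay below those of TNF (36.1%, log2 difference -0.34, SE 0.12). TNF and control libraries overlapped (log2 difference -0.24, SE 0.12), as did those of BAY-876 with TNF and of BAY-876 alone (log2 difference -0.12, SE 0.12). With 0.1 in place of 1 added to TPM these 4 differences were -1.28, -1.08, -0.57 and -0.37 in the same order, and the authors' deposited table gave -1.39, -1.43, -0.59 and -0.64. Under quantile normalization TNF against control was at -0.09. Every pair of neighbours in the order control, TNF, BAY-876, BAY-876 with TNF overlapped.

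Arrdc3 did not share the low levels of Txnip and Arrdc4 under BAY-876. At 36 h it had 1654, 2002 and 1894 normalized counts with BAY-876, against 1806, 1557 and 1456 with vehicle. These ranges overlapped, with a log2 difference of 0.20 (SE 0.10). In the 32 h experiment it had 26.9, 23.2 and 22.1 TPM with BAY-876, 11.4, 10.1 and 10.5 TPM with TNF, 10.6, 11.1 and 8.38 TPM with BAY-876 and TNF, and 15.9, 16.8 and 15.9 TPM in control. The BAY-876 libraries were above all others and the libraries with TNF below all others. The mean with BAY-876 was 1.49 times that of control (log2 difference 0.54, SE 0.10), while with TNF it was 65.9% of control (log2 difference -0.56, SE 0.10). With both agents Arrdc3 was at 41.6% of its level with BAY-876 alone (log2 difference -1.19, SE 0.10) and overlapped the TNF libraries (log2 difference -0.09, SE 0.10). So with TNF present the libraries with and without BAY-876 were not separated.

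Mlxip (MondoA), the first of the transcription factors, differed little between treatments. At 36 h it had 679, 749 and 746 normalized counts with BAY-876, against 710, 770 and 695 with vehicle, and the groups overlapped (log2 difference 0.00, SE 0.08). At 32 h it had 8.05, 7.72 and 8.60 TPM with BAY-876, 10.4, 8.96 and 9.55 TPM with TNF, 10.3, 9.93 and 8.74 TPM with BAY-876 and TNF, and 10.1, 9.70 and 9.89 TPM in control. The BAY-876 libraries lay just below those of every other group, at 82.1% of the control mean (log2 difference -0.26, SE 0.08). Under quantile normalization this difference was -0.15. The other groups overlapped each other, with log2 differences from control of -0.04 for TNF and -0.03 for both agents (SE 0.08 each), which became 0.11 and 0.22 under quantile normalization.

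Mlxipl (ChREBP) was low in LLC cells and lower still under each agent at 32 h. It had 2.21, 1.81 and 1.88 TPM with BAY-876, 2.61, 1.71 and 2.05 TPM with TNF, 1.76, 1.40 and 1.97 TPM with BAY-876 and TNF, and 6.58, 5.20 and 3.70 TPM in control. Every treated library lay below every control library, and the 3 treated groups overlapped one another. The means were 38.1% of control with BAY-876 (log2 difference -1.03, SE 0.18), 41.2% with TNF (log2 difference -0.96, SE 0.18) and 33.2% with both (log2 difference -1.16, SE 0.18). At 36 h no such difference was seen: Mlxipl had 42.9, 67.5 and 44.1 normalized counts with BAY-876, against 35.5, 30.1 and 108.9 with vehicle. The third vehicle library held more than its partners together, and the log2 difference of 0.04 (SE 0.44) became 0.61 without it.

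Mlx, the shared partner, had 622, 705 and 662 normalized counts with BAY-876 at 36 h, against 667, 784 and 788 with vehicle, with overlapping groups (log2 difference -0.17, SE 0.09). At 32 h it had 33.0, 41.4 and 37.5 TPM with BAY-876, 44.6, 51.1 and 52.9 TPM with TNF, 45.5, 38.4 and 42.2 TPM with BAY-876 and TNF, and 36.2, 37.0 and 43.7 TPM in control. Only the TNF libraries stood above control, at 127% of its mean (log2 difference 0.34, SE 0.10), and BAY-876 and control overlapped (log2 difference -0.06, SE 0.10).

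**Figure D2:**
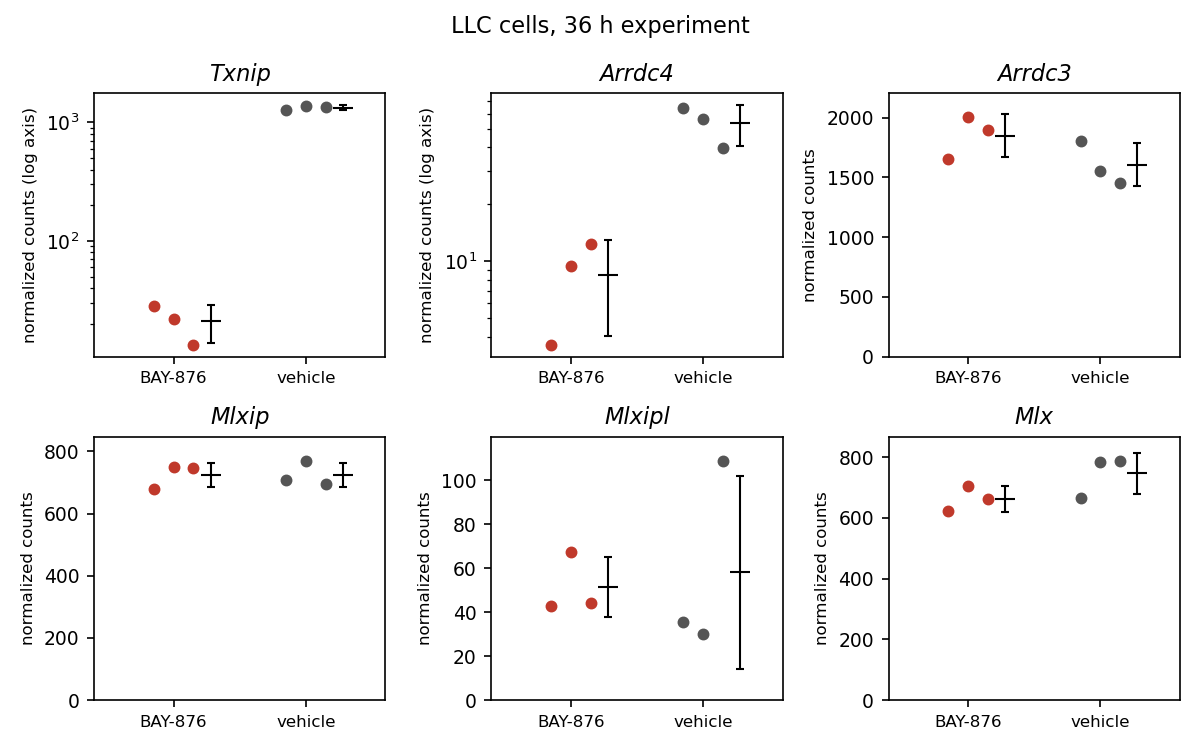
Normalized counts of the 6 members in each BAY-876 and vehicle library at 36 h, on a log axis for Txnip and Arrdc4 and a linear axis from 0 for the others; points are libraries, and the cross and bar are the mean and SD of 3. Txnip and Arrdc4 are lower in every BAY-876 library, and the groups overlap for the other members.

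Counted over the members, the libraries of BAY-876 and vehicle at 36 h did not overlap for 2 of 6, both lower with BAY-876, where 36.7% of the 12937 genes past the filter did not overlap (18.3% higher and 18.4% lower). For BAY-876 against control at 32 h this held for 5 of 6 members, 1 higher and 4 lower, against 50.9% of 12780 genes (16.4% higher and 34.5% lower). For TNF against control it held for 4 of 6, 1 higher and 3 lower, against 55.9% (23.8% higher and 32.1% lower). For BAY-876 with TNF against BAY-876 it held for 2 of 6, 1 higher and 1 lower, against 52.6% (22.7% higher and 29.9% lower). Against TNF it held for 2 of 6, both lower, against 45% (14.4% higher and 30.5% lower). Against control it held for 4 of 6, all lower, against 63% (22.5% higher and 40.5% lower). The members were chosen with these contrasts known, so nothing is read from the shares, and Arrdc4 at 32 h is counted although it was below the filter.

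The effect of BAY-876 in the presence of TNF minus its effect without TNF was 1.78 for Txnip on the log2 scale (SE 0.26), whose level with TNF alone was already lower. It was 0.83 for Mlxipl (SE 0.25), -0.63 for Arrdc3 (SE 0.14), 0.26 for Mlxip (SE 0.12), 0.12 for Arrdc4 (SE 0.17) and -0.17 for Mlx (SE 0.14). Both groups with BAY-876 were under 1 TPM for Txnip. The authors' deposited table gave log2 fold changes of -6.38 (SE 0.22) for Txnip with BAY-876 against control and -4.69 (SE 0.32) with BAY-876 and TNF against TNF. For BAY-876 against control the authors' deposited table gave -1.39 (SE 0.59) for Arrdc4, 0.67 (SE 0.10) for Arrdc3, -0.19 (SE 0.09) for Mlxip and -1.29 (SE 0.29) for Mlxipl, each with the same sign as the differences above. It gave 0.04 (SE 0.12) for Mlx, whose groups overlapped and whose difference above was -0.06.

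**Figure D3:**
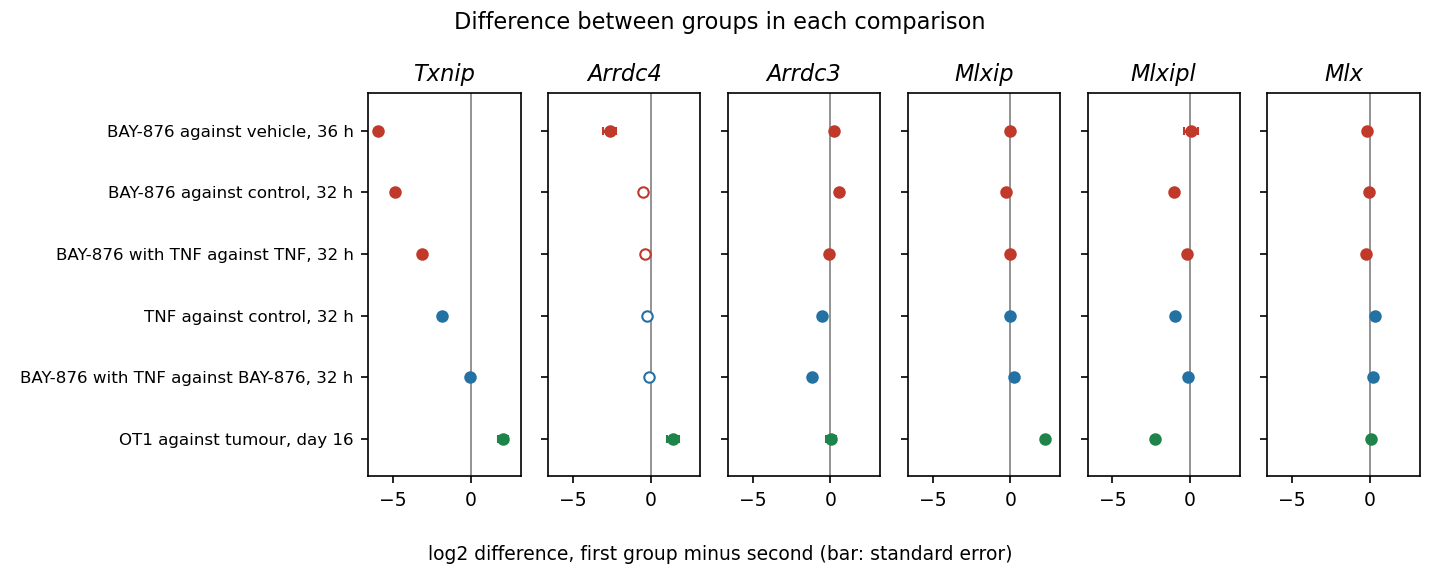
Log2 differences of the 6 members, first group minus second, with bars for the limma standard error, in 6 comparisons (red: BAY-876; blue: TNF; green: sorted cells; open points: Arrdc4 below the filter on low values). Txnip lies at -5.96 to -3.12 in the 3 comparisons shown in red and at 2.08 in OT1 against tumour cells, while Mlx stays between -0.23 and 0.34.

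In cells sorted on day 16, Txnip and Mlxip were higher in OT1 cells, Mlxipl was higher in tumour cells, and Mlx was at about the same level in both. In such bulk samples, fewer cells of a type and less RNA per cell cannot be told apart. Txnip had 131, 212, 198, 124 and 401 TPM in OT1 cells, against 54.5, 28.4, 54.0, 65.8 and 33.6 TPM in tumour cells. The lowest OT1 library was above the highest tumour library. The means were 213 ± 112 TPM in OT1 cells and 47.2 ± 15.7 TPM in tumour cells (SD, n = 5 each), a ratio of 4.51 (log2 difference 2.08, SE 0.32).

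Arrdc4 had 1.99, 9.76, 4.31, 5.68 and 15.1 TPM in OT1 cells, against 2.49, 1.17, 1.08, 2.25 and 1.37 TPM in tumour cells. OT1 replicate 1 fell within the tumour range and the other OT1 libraries were above it, for a ratio of means of 4.41 and a log2 difference of 1.45 (SE 0.39). Arrdc3 had 7.50, 16.4, 17.4, 13.1 and 41.1 TPM in OT1 cells, against 16.6, 12.4, 19.6, 18.1 and 14.96 TPM in tumour cells. These groups overlapped, with a log2 difference of 0.02 (SE 0.34), and OT1 replicate 5 was above all other libraries. Without it the difference was -0.29.

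The myeloid markers followed the same libraries. The 8 markers summed to 637, 3378, 1562, 2060 and 8848 TPM in OT1 replicates 1 to 5, against 15.1 to 78.0 TPM in tumour cells, and none of the 8 was at 0 throughout. OT1 replicate 5 had the highest myeloid sum and the highest Txnip, Arrdc4 and Arrdc3, and OT1 replicate 1 the lowest myeloid sum and the lowest Arrdc4 and Arrdc3. Without OT1 replicates 2, 4 and 5, which held the most myeloid transcripts, the log2 difference was 1.81 for Txnip, 0.61 for Arrdc4 and -0.46 for Arrdc3. OT1 replicate 5 also had the lowest sum of T cell markers among OT1 libraries, at 4152 TPM. The part of myeloid transcripts in the Txnip, Arrdc4 and Arrdc3 levels was not tested. Erythroid markers ranged from 34.1 to 1514 TPM in OT1 cells and from 2.46 to 480 TPM in tumour cells, the 3 endothelial markers from 42.3 to 59.9 TPM in OT1 cells and 0.839 to 6.53 TPM in tumour cells, and the 2 NK cell markers from 4.22 to 11.7 TPM in OT1 cells and 0 to 0.439 TPM in tumour cells. Only 1 of the 3 endothelial and 1 of the 2 NK cell markers passed the filter on low values on day 16. The 3 B cell markers stayed below 2 TPM in both cell types.

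Mlxip had 65.2, 70.5, 55.2, 55.0 and 60.2 TPM in OT1 cells, against 10.2, 14.4, 13.2, 9.95 and 14.3 TPM in tumour cells. The groups were far apart and each was narrow, with a ratio of means of 4.93 (log2 difference 2.22, SE 0.13). Mlxipl had 0.757, 0.380, 1.02, 0.936 and 0.800 TPM in OT1 cells, against 7.43, 6.13, 7.36, 10.2 and 6.64 TPM in tumour cells. Its OT1 mean was 10.3% of the tumour mean (log2 difference -2.26, SE 0.16). Without the 3 OT1 libraries richest in myeloid transcripts these differences were 2.20 for Mlxip and -2.17 for Mlxipl. Mlx had 39.6, 46.3, 38.4, 32.0 and 31.9 TPM in OT1 cells, against 37.4, 34.7, 33.4, 33.4 and 40.3 TPM in tumour cells, and the groups overlapped (log2 difference 0.06, SE 0.11). In all, 3 of 6 members did not overlap between OT1 and tumour cells, 2 higher and 1 lower, against 63.1% of the 13511 genes past the filter (25.3% higher and 37.8% lower), a contrast that the choice of members also used.

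**Figure D4:**
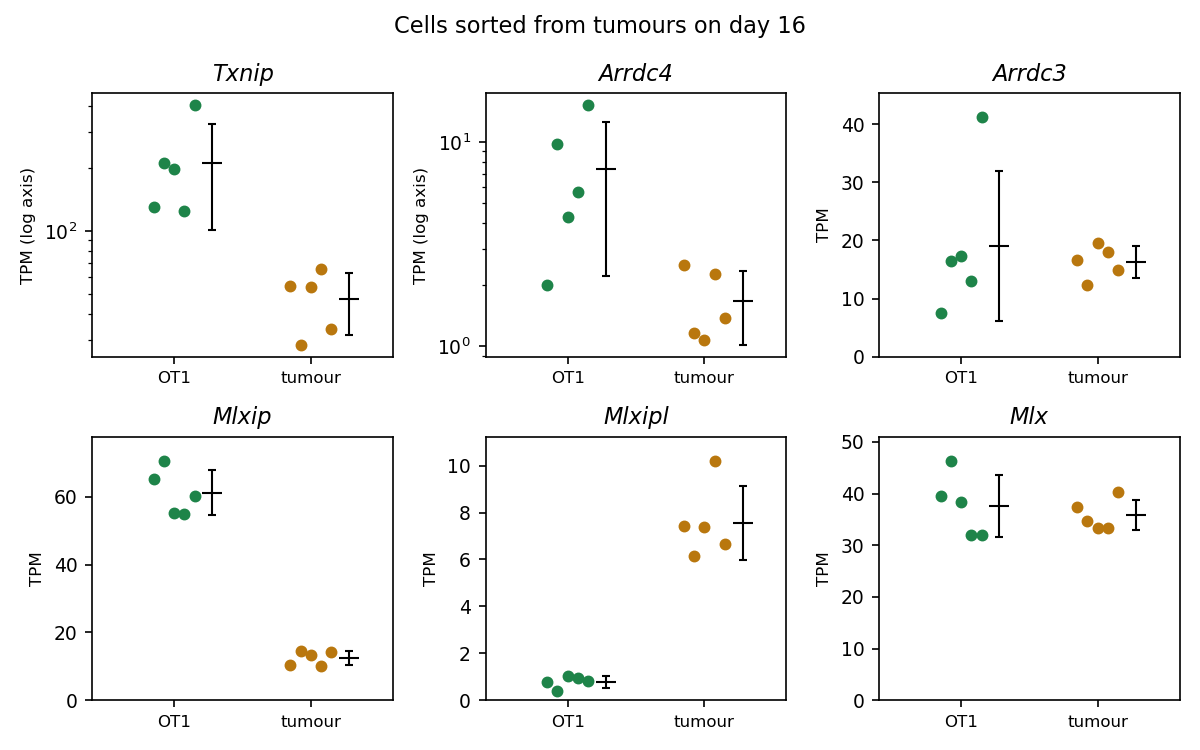
Levels of the 6 members in TPM in each library of OT1 and tumour cells sorted on day 16, on a log axis for Txnip and Arrdc4 and a linear axis from 0 for the others; points are libraries, and the cross and bar are the mean and SD of 5. Txnip and Mlxip are higher in every OT1 library, Mlxipl is lower in every OT1 library, and OT1 replicate 5 stands above the others for Txnip, Arrdc4 and Arrdc3.

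Because Mlxip and Mlxipl share the partner Mlx, their balance was expressed as the share of Mlxip in the summed TPM of both. It was 98.7 ± 0.503% in OT1 cells and 62.0 ± 8.49% in tumour cells (SD, n = 5 each), with 98.2% as the lowest OT1 library and 70.2% as the highest tumour library. In culture it was 80.5 ± 1.84% with BAY-876, 82.1 ± 2.04% with TNF, 84.9 ± 3.04% with both and 66.2 ± 6.18% in control (SD, n = 3 each). The lowest treated library was at 78.5% and the highest control library at 72.8%. MondoA was thus the more abundant transcript of the pair by mean level in each of these groups, although 1 tumour library was at 49.4%.

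Within a table the members can be ranked by mean TPM. In control LLC cells Txnip stood at 43.5 TPM and Mlx at 39.0 TPM, followed by Arrdc3 at 16.2, Mlxip at 9.90, Mlxipl at 5.16 and Arrdc4 at 0.764 TPM. The libraries of Txnip and Mlx overlapped in this order. With BAY-876 Txnip was at 0.491 TPM while Mlx was at 37.3 TPM and Mlxip at 8.12 TPM. In OT1 cells Txnip led at 213 TPM, ahead of Mlxip at 61.2 and Mlx at 37.6 TPM, and in tumour cells it led at 47.2 TPM, ahead of Mlx at 35.8 TPM, with overlapping libraries.

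Txnip lies within a longer gene on the other strand, and the reads of both may not be separable. In GENCODE M21 on GRCm38, Txnip spans chr3:96557957-96561883 on the plus strand, and the antisense gene Gm15441 spans chr3:96555765-96566801 on the minus strand. The upstream stretch of Txnip shown above lies within the span of Gm15441. It overlaps 2 annotated exon records, which may repeat an exon across transcripts and whose gene was not looked up. The sources used here do not say whether counting used strand. Gm15441, singled out after its values were seen, averaged 2.78 ± 1.64 normalized counts with BAY-876 at 36 h and 195 ± 26.8 with vehicle (SD, n = 3 each). At 32 h it averaged 0.101 TPM with BAY-876, 2.00 with TNF, 0.0695 with both and 8.43 in control, and on day 16 it averaged 34.9 ± 15.6 TPM in OT1 cells and 9.45 ± 3.26 TPM in tumour cells (SD, n = 5 each). In control, TNF, OT1 and tumour libraries its value in TPM was between 12.2% and 22.4% of that of Txnip. Over the 12 libraries at 32 h it was the gene closest to Txnip of 12779 compared, by the root mean square difference of centred log2(TPM + 1) values, at 0.885. Without strand, reads from stretches where the 2 genes overlap cannot be assigned to either gene. Gm15441 extends beyond Txnip on both sides, and reads from there were not examined.

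**Figure D5:**
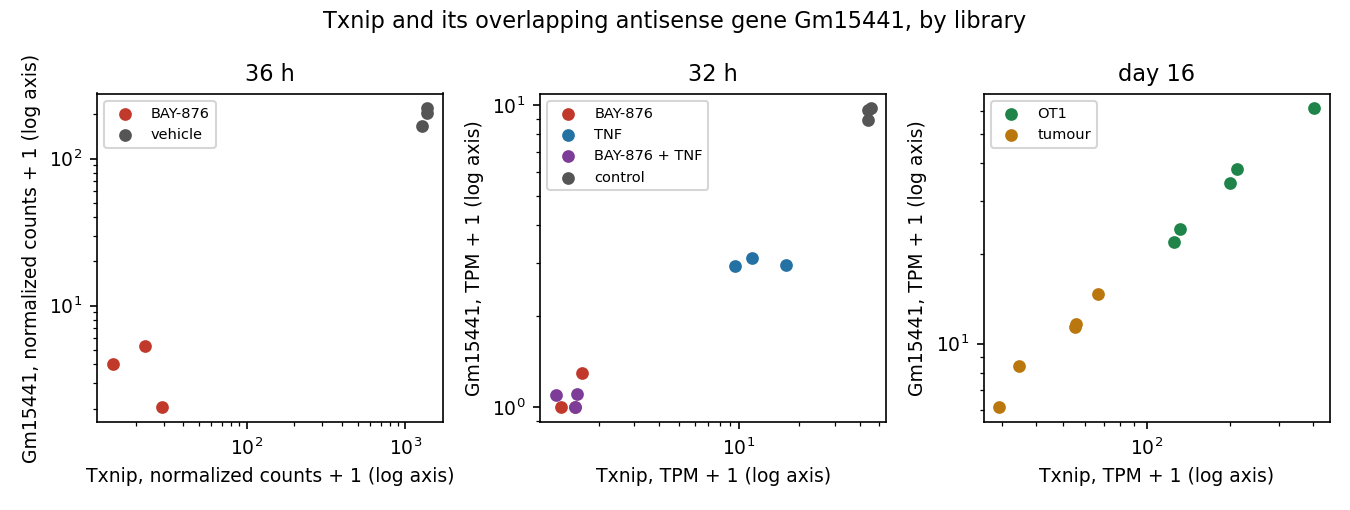
Values of Gm15441 against those of Txnip in each library, each with 1 added and on log axes, in normalized counts at 36 h and in TPM at 32 h and on day 16. The libraries with BAY-876 lie at the lower left in both culture panels, and OT1 libraries lie above and to the right of tumour libraries.

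The other members also have annotated neighbours on top of them, except Arrdc4 (chr7:68736995-68749241, minus strand). Mlx (chr11:101087277-101092207, plus strand) overlaps the end of Psmc3ip on the other strand, which averaged 25.0 to 28.4 TPM over the groups at 32 h, 11.4 TPM in OT1 cells and 25.1 TPM in tumour cells. Mlxip (chr5:123394798-123457932, plus strand) overlaps the antisense gene Gm15747, which averaged 10.7 ± 2.37 TPM in OT1 cells and 2.26 ± 2.03 TPM in tumour cells (SD, n = 5 each), below Mlxip itself in both. Arrdc3 (chr13:80883384-80896042, plus strand) overlaps 1700023H06Rik, which averaged below 1 TPM in every TPM group. Mlxipl (chr5:135089890-135138382, plus strand) overlaps the antisense gene Gm43500. All 6 members are protein-coding.

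Genes with the pattern most like that of Txnip over the 12 libraries at 32 h were sought among 11102 genes, predicted genes left out, by the same root mean square difference. They were Prtn3 (1.06), Nrarp (1.32), Slc9a3r1 (1.35), Arap3 (1.35) and BC028528 (1.40), where the median of all genes was 2.08. Each of these differed from Txnip by more than 1 log2 on this measure, so they followed it only loosely. Arap3 averaged 5.11 TPM with BAY-876 and 19.7 in control, where Txnip averaged 0.491 with BAY-876 and 43.5 in control. Prtn3, a neutrophil serine protease gene, averaged 0.283 TPM with BAY-876, 2.44 with TNF, 0.233 with both and 6.90 in control. Slc9a3r1, which encodes a membrane scaffold, averaged 8.14 TPM with BAY-876, 23.9 with TNF, 7.25 with both and 27.6 in control. At 36 h Prtn3 averaged 7.17 normalized counts with BAY-876 and 30.0 with vehicle, and Nrarp, which encodes a regulator of Notch signalling, 44.0 with BAY-876 and 83.5 with vehicle. Means of the other 3 were closer, with 220 with BAY-876 and 239 with vehicle for Slc9a3r1, 244 with BAY-876 and 254 with vehicle for Arap3, and 36.2 with BAY-876 and 40.8 with vehicle for BC028528. The genes closest to Arrdc4 were Klhl5 (0.0971), Ppp2r5c (0.101), Cep192 (0.102), Snhg14 (0.103) and Usf3 (0.104), against a median of 0.305. Since Arrdc4 varied below 1 TPM, this measure picks genes with a small log2 range.

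Genes around the circuit were tested with limma over all genes past the filter, with p-values adjusted by Benjamini-Hochberg. Of all genes tested, 14.4% passed the threshold of 0.05 for BAY-876 at 36 h (7.34% higher and 7.1% lower). At 32 h 37.4% passed for BAY-876 against control (11.5% higher and 25.8% lower) and 45.6% for TNF against control (19.4% and 26.1%). For BAY-876 with TNF 44.2% passed against BAY-876 (19.3% higher and 24.8% lower), 34% against TNF (10.4% and 23.6%) and 58.8% against control (20.9% and 37.9%). For the interaction 1.56% passed (0.736% and 0.822%), and for OT1 against tumour cells 74.5% (30.1% and 44.4%). A count of list genes near these shares is no result about the list. Where fewer calls held in every alternative setting in which the gene passed the filter, that number follows in parentheses. Under quantile normalization the share of calls that were higher moved to 49.3% from 30.8% for BAY-876 against control, to 47.6% from 30.5% for BAY-876 with TNF against TNF, and to 51.2% from 35.6% against control. For BAY-876 with TNF against control it also moved the median log2 difference of all genes to 0.02 from -0.13. The median log2 difference of all genes tested was -0.00 for BAY-876 at 36 h, -0.09 for BAY-876 and -0.06 for TNF at 32 h, -0.21 for OT1 against tumour cells, and -0.05, -0.08 and -0.13 for BAY-876 with TNF against BAY-876, TNF and control; list medians below are given for the same comparisons.

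Known carbohydrate response targets outside the arrestins did not fall together with Txnip and Arrdc4 under BAY-876. At 36 h, 3 of 11 tested rose and 1 fell (1 and 1 in every alternative), and at 32 h 6 of 12 rose and 2 fell, with list medians of 0.11 and 0.34 log2 beside -0.00 and -0.09 over all genes. Fasn, the fatty acid synthase gene, averaged 242 ± 13.5 TPM with BAY-876 and 87.4 ± 1.11 TPM in control at 32 h (SD, n = 3 each; log2 difference 1.46, limma adjusted p = 5.36e-08). Acaca, the acetyl-CoA carboxylase gene, averaged 48.5 ± 2.33 TPM with BAY-876 and 29.1 ± 1.19 TPM in control (log2 difference 0.72, limma adjusted p = 6.23e-06), and Elovl6, a fatty acid elongase gene, averaged 49.7 ± 0.429 TPM with BAY-876 and 32.5 ± 1.35 TPM in control (log2 difference 0.60, limma adjusted p = 2.31e-05). At 36 h the calls of Fasn (log2 difference 0.26, limma adjusted p = 0.039) and Scd1 (0.22, limma adjusted p = 0.0442) were lost in 7 and 6 of 11 alternatives. The count of risers was 1 without BAY-876 replicate 2 or 3 or any vehicle replicate.

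Rgs16, a regulator of G protein signalling, went opposite ways in the 2 culture experiments. It rose with BAY-876 at 36 h, with 296 ± 45.4 normalized counts against 145 ± 8.25 with vehicle (log2 difference 1.01, limma adjusted p = 0.00271). It fell at 32 h, with 6.94 ± 0.250 TPM with BAY-876 and 10.7 ± 0.789 TPM in control (log2 difference -0.56, limma adjusted p = 0.000264). The 2 experiments were not tested against each other. Klf10, a Krüppel-like repressor gene, fell with BAY-876 at 36 h (log2 difference -0.40, limma adjusted p = 0.00847) and with BAY-876 and TNF against TNF, with 5.25 ± 0.734 TPM with both agents and 13.4 ± 1.15 TPM with TNF (log2 difference -1.21, limma adjusted p = 0.000365).

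With TNF against control, 6 of 12 carbohydrate response targets rose and 3 fell (5 and 2 in every alternative). Fasn averaged 145 ± 11.2 TPM with TNF and 87.4 ± 1.11 TPM in control (log2 difference 0.72, limma adjusted p = 2.55e-06), whereas Khk, the fructokinase gene, averaged 9.97 ± 1.17 TPM with TNF and 27.5 ± 1.61 TPM in control (log2 difference -1.38, limma adjusted p = 3.04e-06). With BAY-876 and TNF, 4 rose and 1 fell against TNF (3 and 1 in every alternative), 3 rose and 3 fell against BAY-876 (0 and 2), and 7 rose and 5 fell against control (6 and 4). Without replicate 3 of BAY-876 with TNF, 5 rose against BAY-876. On day 16, 3 of 11 were higher and 5 lower in OT1 cells. Rgs16 averaged 252 ± 78.1 TPM in OT1 cells and 17.2 ± 3.87 TPM in tumour cells (log2 difference 3.76, limma adjusted p = 5.86e-08), and Fasn averaged 52.6 ± 15.7 TPM in OT1 cells and 178 ± 30.0 TPM in tumour cells (log2 difference -1.78, limma adjusted p = 9.87e-06). The list median was 0.08 for TNF and -0.17 for OT1 cells, and 0.09, 0.12 and 0.29 with both agents against BAY-876, TNF and control.

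Of the genes for glucose uptake and phosphorylation, 2 of 4 tested rose with BAY-876 in each culture experiment and none fell. Slc2a1, which encodes the target of BAY-876, averaged 9779.8 ± 475 normalized counts with BAY-876 at 36 h and 5104 ± 108 with vehicle (log2 difference 0.94, limma adjusted p = 3.44e-05), and 121 ± 9.33 TPM with BAY-876 and 76.8 ± 3.10 TPM in control at 32 h (log2 difference 0.64, limma adjusted p = 0.000446). In these comparisons Slc2a1 differed in the opposite direction to Txnip. Slc2a1 was not called for TNF against control or for BAY-876 with TNF against TNF, where Txnip was also lower. Hk1 rose at 36 h (log2 difference 0.44, limma adjusted p = 0.00146) and Hk2 at 32 h (0.50, limma adjusted p = 9.99e-05), both hexokinase genes. With TNF against control 1 of 4 rose and 1 fell; with BAY-876 and TNF 0 rose and 1 fell against BAY-876, 2 rose and 1 fell against TNF (1 and 1 in every alternative), and 3 rose and 1 fell against control. The riser lost against TNF was Hk2, without TNF replicate 1 or 3 or without replicate 1 or 2 of both agents. In OT1 cells 2 of 5 were higher and 2 lower. Slc2a3, the gene of the transporter GLUT3, averaged 69.4 ± 10.4 TPM in OT1 cells and 4.27 ± 1.07 TPM in tumour cells (log2 difference 3.75, limma adjusted p = 1.27e-09), and Slc2a1 averaged 60.7 ± 9.48 TPM in OT1 cells and 124 ± 32.8 TPM in tumour cells (log2 difference -0.99, limma adjusted p = 0.000392). Hk3, the other gene higher in OT1 cells, is also expressed in myeloid cells, and its 54.5 ± 35.5 TPM in OT1 cells stand beside the myeloid sums given above, whose part in it was not tested. Without OT1 replicates 2, 4 and 5 Hk3 was below the filter, which asks for 1 TPM in at least 5 libraries. The OT1 libraries left are too few to meet it alone, so this says nothing of Hk3 in them. The median log2 difference over these glucose genes was 0.25 for BAY-876 at 36 h, 0.41 for BAY-876 and 0.18 for TNF at 32 h, 0.22 in OT1 cells, and -0.14, 0.21 and 0.43 with both agents against BAY-876, TNF and control.

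Of the thioredoxin system, which TXNIP inhibits, none of 5 genes passed at 36 h. At 32 h with BAY-876, 2 rose and 2 fell (0 and 2 in every alternative). Txnrd1, the cytosolic thioredoxin reductase gene, averaged 140 ± 0.423 TPM with BAY-876 and 205 ± 3.73 TPM in control (log2 difference -0.54, limma adjusted p = 2.94e-06), and Txnrd2 also fell (-0.45, limma adjusted p = 0.00864), while the calls of the risers Txn2 and Txnrd3 were lost in 4 and 9 alternatives. With TNF 2 rose and 1 fell. Txn2, the mitochondrial thioredoxin gene, averaged 184 ± 6.06 TPM with TNF and 124 ± 3.37 TPM in control (log2 difference 0.56, limma adjusted p = 3.12e-07), and Txn1 averaged 833 ± 3.31 TPM with TNF and 708 ± 11.04 TPM in control (log2 difference 0.23, limma adjusted p = 0.000284). With BAY-876 and TNF 3 rose and 0 fell against BAY-876, 1 rose and 0 fell against TNF (0 in every alternative), and 3 rose and 2 fell against control (3 and 0 in every alternative). Both that fell against control, Txnrd1 and Txnrd2, were not called without replicate 3 of both agents. In OT1 cells 0 were higher and 4 lower (3 in every alternative). Txn1 averaged 315 ± 40.5 TPM in OT1 cells and 712 ± 29.3 TPM in tumour cells (log2 difference -1.18, limma adjusted p = 4.9e-07). The median log2 difference over thioredoxin genes was 0.16 for BAY-876 at 36 h, 0.08 for BAY-876 and 0.13 for TNF at 32 h, -1.18 in OT1 cells, and 0.24, 0.05 and 0.32 with both agents against BAY-876, TNF and control.

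Among the remaining alpha-arrestins 2 of 3 were past the filter. Neither passed the test at 36 h, and Arrdc1, an adaptor of membrane vesicle budding, was the only one called elsewhere. It averaged 15.8 ± 1.28 TPM with BAY-876, 16.5 ± 1.20 with TNF, 11.999 ± 1.40 with both and 23.4 ± 0.248 in control, and it was lower in each of the 5 comparisons among these groups (limma adjusted p = 3.39e-06 to 0.00477). In OT1 cells it averaged 94.3 ± 7.43 TPM and in tumour cells 28.3 ± 1.30 TPM (log2 difference 1.70, limma adjusted p = 3.3e-09). The median log2 difference over both arrestins was 0.15 for BAY-876 at 36 h, -0.35 for BAY-876 and -0.07 for TNF at 32 h, 0.92 in OT1 cells, and -0.12, -0.40 and -0.47 with both agents against BAY-876, TNF and control.

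The NEDD4-family ligases are partners that alpha-arrestins recruit, and they were listed together with their adaptors. Of these genes 9 of 11 were tested. At 36 h 1 rose and 0 fell, with BAY-876 at 32 h 1 rose and 1 fell (1 and 0 in every alternative), and with TNF 1 rose and 3 fell (1 and 2). With BAY-876 and TNF 1 rose in each comparison, and 3 fell against BAY-876 (2 in every alternative), 1 against TNF and 5 against control (2 in every alternative). Against control 3 fell without control replicate 1 or without replicate 2 or 3 of both agents, and 2 under quantile normalization. Wwp1, the gene that fell with BAY-876, was not called without control replicate 1 or 3 or any BAY-876 replicate. The riser was Smurf1 each time. It averaged 24.6 ± 0.982 TPM with BAY-876, 24.1 ± 0.746 with TNF, 36.7 ± 2.38 with both and 16.6 ± 0.371 in control. Nedd4 fell with TNF, with 429 ± 14.2 TPM with TNF and 629 ± 21.3 TPM in control (log2 difference -0.55, limma adjusted p = 7.85e-06). In OT1 cells 4 were higher and 4 lower. The adaptor Ndfip1 averaged 328 ± 43.0 TPM in OT1 cells and 113 ± 7.17 TPM in tumour cells (log2 difference 1.52, limma adjusted p = 8.35e-08), and Nedd4 averaged 68.1 ± 28.3 TPM in OT1 cells and 489 ± 32.5 TPM in tumour cells (log2 difference -2.94, limma adjusted p = 1.29e-06). The median log2 difference over ligases and adaptors was 0.05 for BAY-876 at 36 h, -0.05 for BAY-876 and -0.21 for TNF at 32 h, 0.13 in OT1 cells, and -0.08, -0.09 and -0.23 with both agents against BAY-876, TNF and control.

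The MAX and MYC network is the sister network of Mlx, with which it shares some of the MXD repressors. At 36 h 2 of 8 tested rose and 1 fell (2 and 0 in every alternative), with BAY-876 at 32 h 2 of 9 rose and 4 fell (0 and 2), and with TNF 4 rose and 3 fell (4 and 2). With BAY-876 and TNF 5 rose and 3 fell against BAY-876 (3 and 2 in every alternative), 1 rose and 2 fell against TNF, and 3 rose and 3 fell against control (2 and 2). The 5 risers against BAY-876 were 3 without replicate 2 of both agents, and the 4 that fell with BAY-876 were 2 without control replicate 1 or 2 or BAY-876 replicate 2 or 3. Max, the gene that fell at 36 h, was not called without vehicle replicate 1 or 3. Mxd4, a MAX and Mlx partner, averaged 7.10 ± 0.473 TPM with BAY-876, 3.10 ± 0.421 with TNF, 2.77 ± 0.257 with both and 12.1 ± 0.436 in control, and it fell with BAY-876 (log2 difference -0.70, limma adjusted p = 0.000286) and with TNF (-1.68, limma adjusted p = 1.41e-07). Myc averaged 735 ± 16.4 TPM with TNF and 379 ± 18.4 TPM in control (log2 difference 0.96, limma adjusted p = 3.84e-08). Its call with BAY-876 at 32 h (0.16, limma adjusted p = 0.0221) was lost in 4 alternatives. In OT1 cells 3 of 9 were higher and 4 lower. Mxd4 averaged 45.7 ± 7.14 TPM in OT1 cells and 6.70 ± 1.86 TPM in tumour cells (log2 difference 2.62, limma adjusted p = 7.16e-08), and Myc averaged 177 ± 60.0 TPM in OT1 cells and 914 ± 210 TPM in tumour cells (log2 difference -2.40, limma adjusted p = 2.74e-06). The median log2 difference over network genes was 0.30 for BAY-876 at 36 h, -0.13 for BAY-876 and 0.01 for TNF at 32 h, -0.03 in OT1 cells, and 0.26, -0.02 and -0.01 with both agents against BAY-876, TNF and control.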

How the data were processed

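RNA-seq values of 28 mouse libraries in 8 groups were taken from the deposited tables. Alignment and quantification tools listed in the submitters' processing notes are Salmon 0.13.1 and 0.14.1, STAR 2.6.1d and DESeq2 1.34.0, with the mm10 build. For 36 h, the values are a signal of normalized counts, which the authors made with DESeq2 going by the name of the deposited table. For 32 h and day 16 the authors deposited TPM, which sum to 1000000 in a library and hide its depth. The authors' deposited 32 h comparison tables give a log2 fold change with its error. A further 24 columns at 32 h matched no labelled sample and were left out. The treatment label of 2 libraries of BAY-876 with TNF gives another compound number than their titles, by which they were grouped.

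Each table was fitted on its own, as log2(value + 1), with limma 3.58.1 in R 4.3.3 (trend; all 12 libraries at 32 h in a single fit), for genes at 10 normalized counts or 1 TPM in at least 3 libraries (5 on day 16). Benjamini-Hochberg adjusted p-values were called at 0.05. The method was tested on simulated data with independently drawn normal values, and nothing above rests on that test. Members and lists were chosen with earlier results of these data known. Named list genes are up to 4 per list and comparison with the smallest p among those called, and genes of at least 100 TPM. The labels tie equal replicate numbers to no shared culture or mouse. Library correlations within groups were 0.9141 to 0.9892. Coordinates are from GENCODE M21, promoters from RefSeq (GRCm38.p6). Alternatives were another pseudocount (0.1 TPM or 10 counts), other filters, quantile normalization, libraries left out, a replicate block, fits of only the libraries compared, and the authors' fold changes.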

Additional observations from a re-analysis of the deposited data

Results flagged for a closer look

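Of the 41 genes of the pathway lists tested for the interaction at 32 h, 4 differed in their response to BAY-876 between cells with and without TNF, by the interaction term of limma (1.56% of all genes tested passed). Txnrd1 had an interaction of 0.44 log2 (limma adjusted p = 0.00337): its difference with BAY-876 was -0.10 with TNF present and -0.54 without. Elovl6 had an interaction of -0.55 (limma adjusted p = 0.00846), with 0.05 with TNF and 0.60 without. Myc had an interaction of 0.38 (limma adjusted p = 0.019), with 0.54 with TNF and 0.16 without, and the call was lost in 5 alternatives. Fasn had an interaction of -0.43 (limma adjusted p = 0.0317), with 1.03 with TNF and 1.46 without, and the call was lost in 12 alternatives.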

How the results depend on the processing

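Of 648 values of members recomputed under the alternatives, 609 moved by less than the spread between replicates and 39 moved by more. Part of the 609 could not move, since another filter, a replicate term or fewer fitted groups leaves a difference of group means unchanged. For Txnip with BAY-876 against control at 32 h it was -4.90 log2 under each of these. The 609 therefore overstate how stable the values were. No value of the 287 between groups whose libraries do not overlap changed sign, and 29 of the 259 between overlapping groups did. For the 287, leaving out libraries, another pseudocount or another filter cannot change a sign. Only quantile normalization and the authors' fold changes could have done so. With the smaller pseudocount for TPM the Txnip log2 difference was -6.25 for BAY-876 against control, -4.50 for BAY-876 with TNF against TNF and -6.43 against control, and with 10 added at 36 h it was -5.45. The authors' deposited table gave -6.38 for BAY-876 against control and -4.69 for BAY-876 with TNF against TNF, where its own scale has no added 1. With each library left out in turn the Txnip difference ranged from -6.19 to -5.68 at 36 h, from -2.08 to -1.65 for TNF against control, from -3.31 to -2.89 for BAY-876 with TNF against TNF, and from 1.59 to 2.02 for the interaction. Counts of called genes then ranged from 648 to 2394 at 36 h, the lowest without vehicle replicate 3, and from 110 to 250 for the interaction, the lowest without TNF replicate 2. The vehicle replicates 1 and 2 and BAY-876 replicate 3 gave 765, 714 and 1072 calls when left out, against 1868 with all. The interaction gave 127 and 117 calls without control replicates 1 and 2, 115 and 119 without BAY-876 replicates 2 and 3, and 122 without TNF replicate 3, against 199 with all.

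In culture same-numbered libraries deviated together weakly or not at all. Correlations were -0.0742 to -0.0194 at 36 h and -0.192 to 0.12 at 32 h. On day 16 those of same-numbered OT1 and tumour libraries were all positive, at 0.0453 to 0.111. Differently numbered ones ran from -0.174 to 0.113. Erythroid sums were highest in replicate 4 (1514 TPM in OT1, 480 in tumour cells) and lowest in replicate 2 (34.1 and 2.46). Whether same-numbered OT1 and tumour libraries share a tumour was not tested, and the numbers were not taken as pairs in the main fits. With the replicate block 1563 genes were called at 36 h, 4710 for BAY-876, 5773 for TNF, 174 for the interaction and 9930 on day 16, and for BAY-876 with TNF 5598 against BAY-876, 4254 against TNF and 7481 against control. Of 167 calls of list genes 130 held in every alternative in which the gene passed the filter, and 0 changed sign. Unknown depth limits the values of Txnip under BAY-876 and of Arrdc4 at 32 h, which were below 1 TPM.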
